A study of Mus musculus with 3 samples.

Results

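The genes encoding the 8 subunits of the condensin complexes were examined: Smc2, Smc4, Ncaph, Ncapd2, Ncapg, Ncaph2, Ncapd3 and Ncapg2. They were taken by name, 8 of 21883 protein-coding genes, and the peaks of open chromatin that overlapped each gene body or the 2 kb on either side were collected in the 3 libraries of the study. Condensins are ring-shaped complexes that hydrolyse ATP to extrude loops of DNA and fold chromosomes for mitosis. Smc2 and Smc4 are the ATPase core of both complexes. Condensin I adds the kleisin NCAPH, which closes the ring, and the HEAT-repeat subunits NCAPD2 and NCAPG. Condensin II adds NCAPH2, NCAPD3 and NCAPG2 in the same places. Condensin II is mostly nuclear through the cell cycle, whereas condensin I reaches the chromosomes after the nuclear envelope breaks down.

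Open chromatin was mapped by single-cell ATAC-seq, an assay that marks accessible DNA with the Tn5 transposase nucleus by nucleus, in dissociated mouse tissue from a study of tumours raised by piggyBac in utero electroporation, a method that inserts transgenes into the brain cells of embryos. One group overexpressed PDGFB-WT and another PDGFB-NLS, both set against Control, and each had 1 library. PDGFB is a growth factor that acts through PDGF receptors, and NLS is left as the labels give it. All 3 libraries carried the tissue label glioma, but the deposited Control data are named Normal, so whether the Control tissue was tumour is not known, and ratios against Control hold for tissue of that uncertain kind. The labels used here give no age, strain, promoter, IDH genotype or number of animals, and do not say what Control received. With 1 library per group there was no test between conditions, and every interval below is a 95% interval of counting error only.

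After barcodes under 200 counts were left out, the PDGFB-WT library held 7441 barcodes, 57616 peaks and 7008951 counts, the PDGFB-NLS library 10996 barcodes, 127094 peaks and 31177621 counts, and the Control library 2226 barcodes, 107627 peaks and 31588784 counts. The median barcode had 821 counts in PDGFB-WT, 2767.5 in PDGFB-NLS and 13054 in Control. Between pairs of libraries, 22 to 118 barcode sequences were shared. Counts are Tn5 cut sites, so a fragment with both ends in a peak counts as 2. Levels are given as CPM, counts scaled to a total of 1000000 over the 47450 regions that every library called, and the sum over peaks within 1000 bp of a gene's end is called the gene-end level. For each gene the end with the higher mean level was used, which was the start for the 7 condensin genes with a RefSeq strand.

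The promoters were examined first, because the peaks compared below lie on or next to them. RefSeq promoters of GRCm38.p6, the assembly of mm10, cover 250 bases before to 50 after a transcription start, and a promoter was found for 7 of the 8 genes. Those of 4 genes are printed 5′ to 3′ on the gene's strand: Ncapd3, on whose promoter the peaks differed between libraries, Ncapd2 and Ncapg as condensin I examples, and Smc2 from the shared core. They lie at chr9:27029915-27030214 (+) for Ncapd3, chr6:125191537-125191836 (-) for Ncapd2, chr5:45669675-45669974 (+) for Ncapg and chr4:52438971-52439270 (+) for Smc2. Capitals mark matches, on either strand, to CCAAT, to the cell cycle homology region, called CHR, or to an E2F site. The CHR was searched as TTTGAA and also as TTCGAA. E2F sites were searched as TTCCCGC and its variants with other central bases, namely TTCGCGC and then TTGCCGC as well as TTGGCGC.
Ncapd3: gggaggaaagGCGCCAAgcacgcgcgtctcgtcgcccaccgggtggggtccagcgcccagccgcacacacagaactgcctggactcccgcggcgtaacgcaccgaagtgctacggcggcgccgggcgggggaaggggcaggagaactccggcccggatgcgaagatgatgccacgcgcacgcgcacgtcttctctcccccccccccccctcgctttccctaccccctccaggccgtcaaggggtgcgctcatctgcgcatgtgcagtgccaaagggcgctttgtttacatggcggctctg
Ncapd2: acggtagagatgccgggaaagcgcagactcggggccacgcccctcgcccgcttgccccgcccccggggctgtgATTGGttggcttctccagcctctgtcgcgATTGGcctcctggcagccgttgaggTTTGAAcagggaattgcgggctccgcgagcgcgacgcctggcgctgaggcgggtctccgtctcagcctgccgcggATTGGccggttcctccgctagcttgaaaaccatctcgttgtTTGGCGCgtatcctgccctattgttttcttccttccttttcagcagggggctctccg
Ncapg: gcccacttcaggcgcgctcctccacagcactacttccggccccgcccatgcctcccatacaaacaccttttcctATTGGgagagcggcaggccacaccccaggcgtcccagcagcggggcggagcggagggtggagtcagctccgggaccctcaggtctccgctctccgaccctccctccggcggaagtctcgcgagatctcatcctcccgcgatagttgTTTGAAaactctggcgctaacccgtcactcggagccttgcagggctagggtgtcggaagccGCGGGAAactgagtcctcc
Smc2: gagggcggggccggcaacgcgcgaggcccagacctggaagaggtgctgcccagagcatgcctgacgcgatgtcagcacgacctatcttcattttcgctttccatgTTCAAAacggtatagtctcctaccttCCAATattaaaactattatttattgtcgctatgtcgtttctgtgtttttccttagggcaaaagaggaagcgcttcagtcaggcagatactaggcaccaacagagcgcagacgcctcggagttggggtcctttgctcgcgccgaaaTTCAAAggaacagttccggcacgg

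CCAAT boxes, CHR elements and E2F sites are elements found in promoters of many cell cycle genes. CHR letters stood in 5 of the 7 condensin promoters, those of Ncapg, Smc2, Ncaph2, Ncapg2 and Ncapd2, with 1 promoter counted per gene, against 19.2% of 32851 RefSeq promoters and 13.7% of the 12928 promoters of genes with an open end in all 3 libraries. E2F letters also stood in 5 of 7, those of Ncapd3, Ncapg, Ncapg2, Ncapd2 and Ncaph, against 9.57% and 16.5% of the same promoter sets. CCAAT stood in 3 of 7, Ncapg, Smc2 and Ncapd2, against 37.4% and 38.1%. The Ncapd2 promoter held 3 CCAAT boxes, 177, 148 and 48 bases before the start, with a CHR match 123 bases before it and an E2F match 7 bases before it. That promoter start is position 125191586, whereas peak positions in the text and figures are measured from the gene's edge, 125192100 for Ncapd2. Ncapg and Ncapg2 also have a promoter start inside the gene's edge. In Ncapg the CHR match began 30 bases before the start, in Ncaph2 22 bases and in Ncapg2 18 bases before it. In Ncapd3 the single E2F match began 240 bases before the start. RefSeq gives Ncapd3 another start at position 27060416, whose promoter is not in these counts. It held a CHR match 249 bases before that start and no other letters searched. Other letters searched on both strands were the GC box GGGCGG, in 6 of 7 condensin promoters against 35.7% of all promoters and 61.9% of those of open genes, the ETS core CCGGAA, in 4 of 7 against 14.9% and 25.8%, and the NRF1 site GCATGCGC, in 0 of 7 against 2.71% and 5.02%. No 2 of these matches overlapped in any of the 7 promoters, except for 1 overlap in Ncaph2. A match describes these letters in this window only.

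Every condensin gene had an open end in all 3 libraries. The core ATPase gene Smc2 (chr4:52439221-52488365) had a gene-end level of 40.9 CPM (34.4 to 48.3) in PDGFB-WT, 55.9 CPM (51.8 to 60.3) in PDGFB-NLS and 57.7 CPM (53.6 to 62.0) in Control. The PDGFB-WT interval lay below both others. Its partner Smc4 (chr3:69004738-69034623) had 85.5 CPM in PDGFB-WT, 92.2 CPM in PDGFB-NLS and 86.9 CPM in Control, with overlapping intervals.

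Among the condensin I genes, the kleisin gene Ncaph (chr2:127103809-127133954) had 31.0 CPM in PDGFB-WT, 40.6 CPM in PDGFB-NLS and 38.3 CPM in Control. The HEAT-repeat gene Ncapd2 (chr6:125168007-125192100) had 85.2 CPM in PDGFB-WT, 101.2 CPM in PDGFB-NLS and 92.2 CPM in Control. The other HEAT-repeat gene, Ncapg (chr5:45669891-45700547), had 71.3 CPM in PDGFB-WT, 89.2 CPM in PDGFB-NLS and 84.4 CPM in Control. In all 3 of these genes PDGFB-NLS was highest and PDGFB-WT lowest in CPM, before any all-gene median was taken off. At each of them the Control interval overlapped both that of PDGFB-NLS and that of PDGFB-WT.

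Among the condensin II genes, the kleisin gene Ncaph2 (chr15:89355719-89372850) had 60.9 CPM in PDGFB-WT, 76.0 CPM in PDGFB-NLS and 71.3 CPM in Control. Ncapg2 (chr12:116405351-116463532), the condensin II counterpart of Ncapg, had 70.8 CPM in PDGFB-WT, 88.7 CPM in PDGFB-NLS and 86.8 CPM in Control. Both had the order seen for condensin I, with overlapping PDGFB-NLS and Control intervals. The PDGFB-WT interval overlapped that of Control at Ncaph2 and lay below it at Ncapg2 (62.1 to 80.4 against 81.8 to 92.1 CPM). Ncapd3 (chr9:27030165-27096522), the condensin II counterpart of Ncapd2, had 89.8 CPM (80.0 to 100.5) in PDGFB-WT, 54.3 CPM (50.3 to 58.6) in PDGFB-NLS and 55.7 CPM (51.7 to 59.9) in Control. It alone of the 8 was highest in PDGFB-WT. PDGFB-WT was the lowest library at 7 of 8 condensin genes, and also at 63.9% of the 10723 genes with enough counts in all 3 libraries. PDGFB-NLS was the highest at 6 of 8, against 31.7% of those genes, and at each of the 6 its interval overlapped that of Control.

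**Figure D1:**
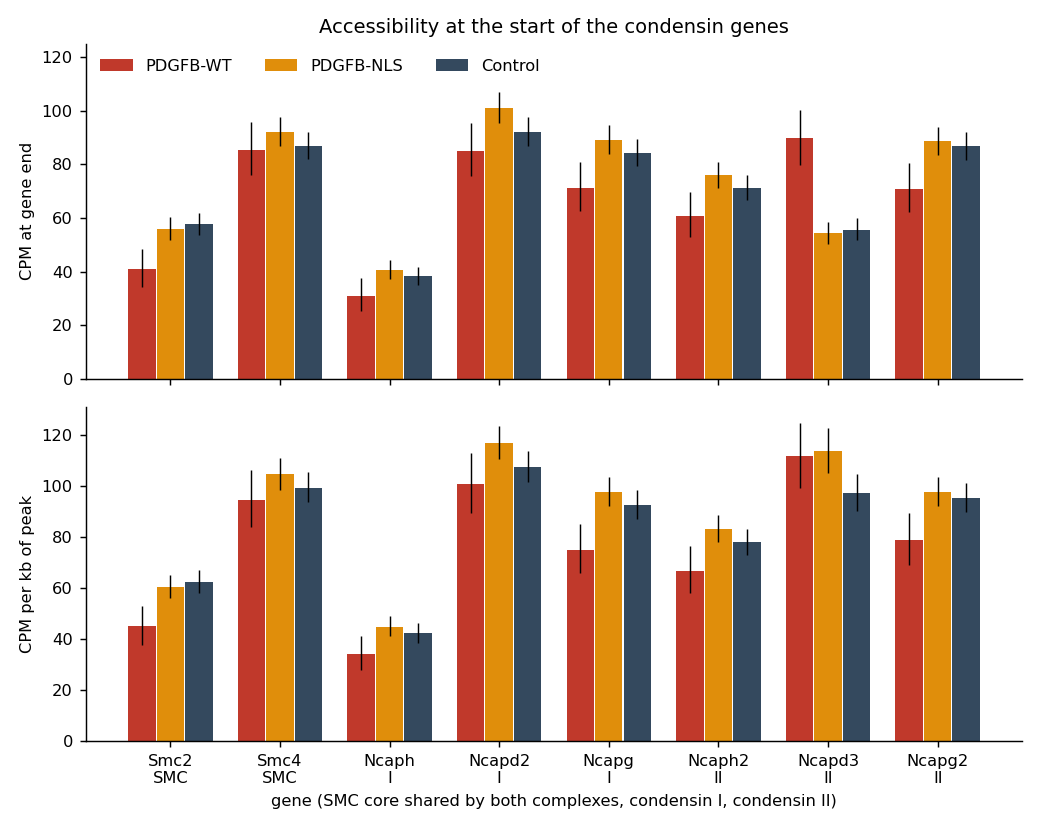
Gene-end levels of the 8 condensin genes in CPM (one panel) and in CPM per kb of peak length (the other), with 1 bar per library and 95% counting intervals. In CPM, Ncapd3 stands at 89.8 in PDGFB-WT, 54.3 in PDGFB-NLS and 55.7 in Control. Per kb, its 3 bars are 111.6, 113.7 and 97.4 in the same libraries.

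Levels of different genes were compared per kb of peak length. In Control the order of CPM per kb was Ncapd2 (107.6), Smc4 (99.3), Ncapd3 (97.4), Ncapg2 (95.3), Ncapg (92.7), Ncaph2 (78.0), Smc2 (62.4) and Ncaph (42.4). The intervals of neighbours in this order overlapped from Ncapd2 to Ncapg, and those of Ncapg, Ncaph2, Smc2 and Ncaph did not overlap their next neighbour. In PDGFB-WT, Ncapd3 came first at 111.6 CPM per kb, and in PDGFB-NLS Ncapd2 came first at 116.8 CPM per kb. Ncaph was lowest in all 3 libraries, at 34.0 CPM per kb in PDGFB-WT, 44.9 in PDGFB-NLS and 42.4 in Control. The median over all 12871 genes with an open end in all 3 libraries was 41.4 CPM per kb in PDGFB-WT, 46.2 in PDGFB-NLS and 45.9 in Control. Smc2, Ncaph2 and the 5 genes above them lay above that median in all 3 libraries. Depth limited single nuclei: the Ncapd3 end had a count in 4.30% of PDGFB-WT barcodes, 6.64% of PDGFB-NLS barcodes and 26.8% of Control barcodes.

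Whether PDGFB-WT tissue differs from Control at the condensin genes was read from log2 ratios of CPM, less the median log2 ratio of all genes compared (-0.16 here), with an interval computed on fragments. Ncapd3 was 1.80-fold higher in PDGFB-WT than in Control by this measure, a log2 ratio of 0.85 (0.62 to 0.996), above 96.9% of the genes. It was the 1 condensin gene of 8 beyond 0.5 on the log2 scale (1.41-fold). Of all 10723 genes compared, 11.4% lay beyond that distance, with 7.47% on the higher and 3.97% on the lower side. Smc2 had a log2 ratio of -0.34 (-0.61 to -0.08), and its interval was the one of the 8 that lay below 0. The other 6 lay between -0.15 (Ncaph) and 0.14 (Smc4), and their intervals held 0. The median of the 8 was -0.08, against 0 for all genes after this subtraction. With counts summed over a library, fewer cells of a type and less accessibility per cell cannot be told apart.

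Between PDGFB-NLS and Control, the condensin genes differed little. None of the 8 passed the fold, against a background of 8.11% of 12509 genes. Their log2 ratios ran from -0.03 (Smc2) to 0.15 (Ncapd2, 0.02 to 0.25), and the Ncapd2 interval was the one of the 8 that did not hold 0. Ncapd3 had a log2 ratio of -0.02 (-0.11 to 0.18). The median of the 8 was 0.10, and 6 of the 8 were above 0. Per kb of peak length, Ncapd2 had 0.10 with an interval that held 0, and the Ncapd3 interval alone lay above 0.

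Between PDGFB-NLS and PDGFB-WT, the 2 overexpression libraries, Ncapd3 was lower in PDGFB-NLS, with a log2 ratio of -0.85 (-0.95 to -0.57). It was again the 1 of 8 past the fold, against 7.78% of 10739 genes, with 3.3% on the higher and 4.48% on the lower side. Smc2 had 0.32 (0.07 to 0.61), Ncapg2 0.20 (0.02 to 0.43) and Ncapg 0.20 (0.00 to 0.41) on the log2 scale, with intervals above 0. The median of the 8 was 0.19. The comparisons share libraries, so the PDGFB-WT values enter both this comparison and that with Control.

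**Figure D2:**
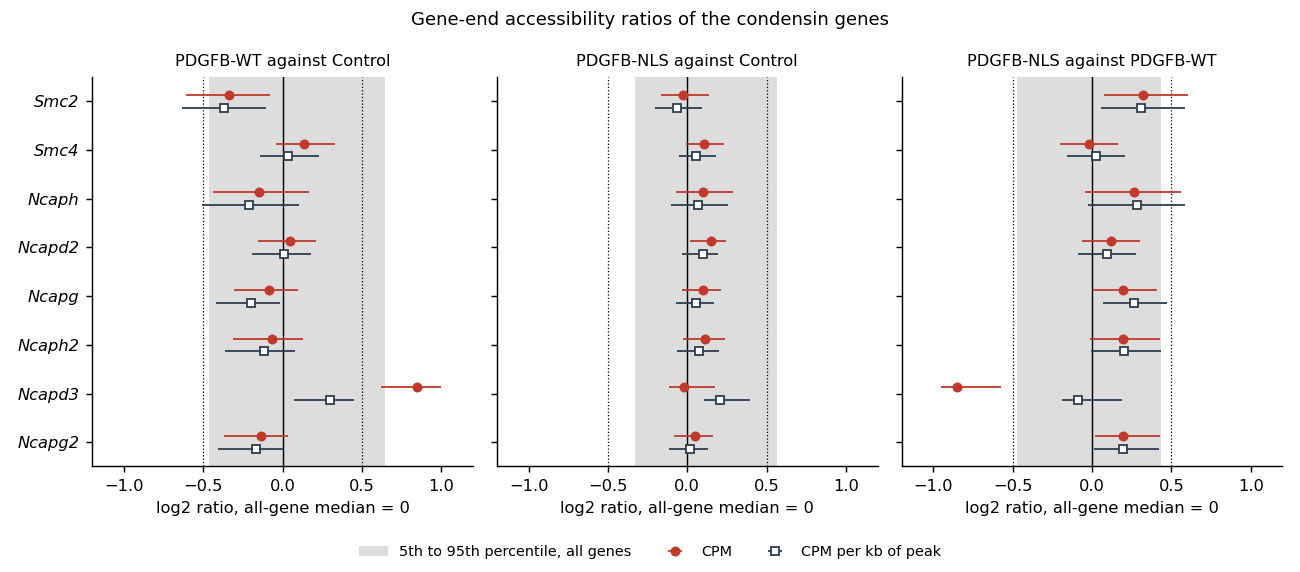
Log2 ratios of gene-end CPM of the 8 condensin genes in the 3 comparisons, less the all-gene median, with 95% counting intervals, from CPM (filled) and from CPM per kb of peak (open squares). Dotted lines mark the distance of 0.5 of a called gene, and the grey band runs between the outer percentiles of all genes named in the legend. From CPM, Ncapd3 lies at 0.85 for PDGFB-WT against Control and at -0.85 for PDGFB-NLS against PDGFB-WT, and at -0.02 for PDGFB-NLS against Control.

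The Ncapd3 difference went together with the extent of its called peak. In PDGFB-WT the peak was chr9:27030004-27030808, 805 bp long, from 161 bases before the start to 643 after it. In PDGFB-NLS it was chr9:27030328-27030805, 478 bp long and from 163 to 640 bases after the start, and in Control chr9:27030316-27030887, 572 bp long and from 151 to 722 bases after the start. The promoter printed above thus lay partly inside the PDGFB-WT peak and outside the called peaks of PDGFB-NLS and Control, and no other peak was called in the 2 kb before the start in any library. At the other 7 genes the peak spanned the start in all 3 libraries, with Smc4, which has no RefSeq strand, measured from its lower coordinate.

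The PDGFB-WT peak of Ncapd3 was 1.41 times as long as that of Control, a length ratio above that of 98.6% of the genes compared. The PDGFB-NLS peak was 0.594 times as long as that of PDGFB-WT, a length ratio above that of 1.06% of the genes. Per kb of peak, Ncapd3 had 111.6 CPM (99.3 to 124.9) in PDGFB-WT, 113.7 CPM (105.2 to 122.7) in PDGFB-NLS and 97.4 CPM (90.4 to 104.8) in Control. On that scale its log2 ratio was 0.30 (0.07 to 0.45) for PDGFB-WT against Control, 0.20 (0.11 to 0.40) for PDGFB-NLS against Control and -0.09 (-0.19 to 0.19) for PDGFB-NLS against PDGFB-WT. None of the 8 condensin genes then passed the fold in any comparison, against 13.8%, 9.47% and 9.93% of all genes in the same order of comparisons.

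An odd count in a barcode means that at least 1 fragment had only 1 end in the peak. They made up 16.9% of the Ncapd3 entries in PDGFB-WT, 28.1% in PDGFB-NLS and 25.2% in Control, against all-gene medians of 7.66%, 7.69% and 7.17% in the same libraries. In PDGFB-NLS and Control this put Ncapd3 above 99.4% and 99.5% of genes, so a larger share of its entries held a fragment that crossed a called edge than at nearly any other gene. The other 7 condensin genes had 1.70% to 10.5% in PDGFB-WT, 3.79% to 10.1% in PDGFB-NLS and 3.33% to 11.3% in Control. Counts within part of a peak are not given by the deposited matrices, so a difference in accessibility and a difference in the called edge cannot be told apart at Ncapd3.

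**Figure D3:**
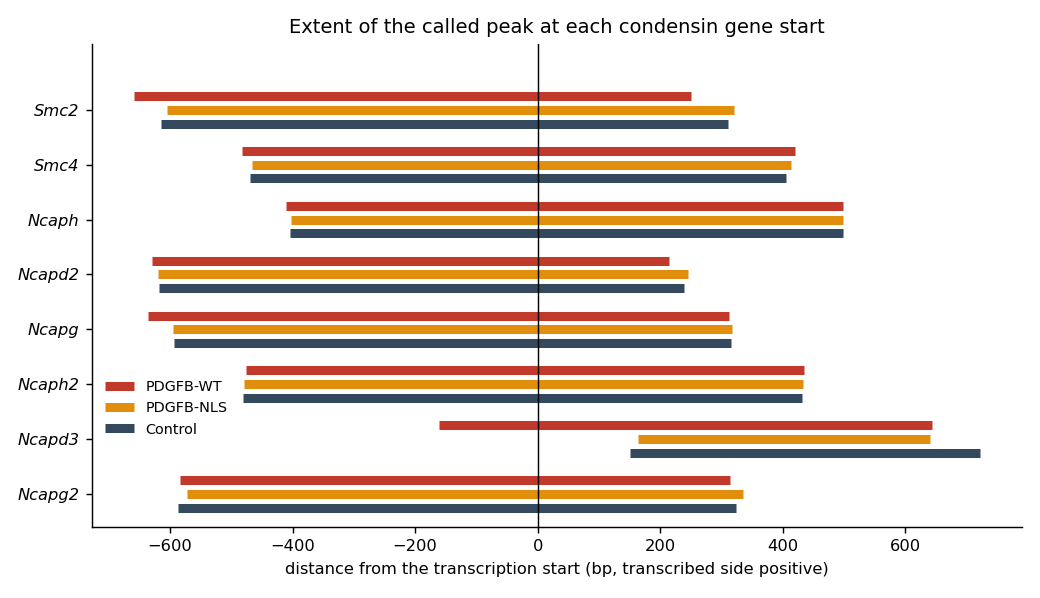
Extent of the gene-end peak of each condensin gene in each library, in bases from the gene's start edge (Smc4 from its lower coordinate). The Ncapd3 peak begins 161 bases before the start in PDGFB-WT, 163 bases after it in PDGFB-NLS and 151 bases after it in Control, while the other 7 genes have peaks across the start in all 3 libraries.

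Neighbouring genes shared the gene-end peak at 4 of the 8 condensin genes, or 50%, against 27.0% of the 12871 genes. Smc4 shared it with Ift80, a gene for intraflagellar transport. Ncapd2 shared it with Mrpl51, which encodes a mitochondrial ribosomal protein, and Ncaph2 with Lmf2. Ncapd3 shared it with Vps26b, which encodes a retromer subunit. At these 4 ends the counts cannot be assigned to 1 gene. Ncaph2 also had a peak near its other end, shared with the end of Sco2, at 24.9 CPM (19.9 to 30.8) in PDGFB-WT, 42.7 CPM (39.1 to 46.5) in PDGFB-NLS and 45.2 CPM (41.6 to 49.0) in Control, with the PDGFB-WT peak 694 bp long, the PDGFB-NLS peak 837 bp and the Control peak 872 bp.

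Summed over each complex, condensin I gene ends held 187 CPM in PDGFB-WT, 231 CPM in PDGFB-NLS and 215 CPM in Control. The pooled log2 ratio of condensin I was -0.04 (-0.17 to 0.08) for PDGFB-WT against Control, 0.12 (0.04 to 0.19) for PDGFB-NLS against Control and 0.17 (0.05 to 0.30) for PDGFB-NLS against PDGFB-WT. Condensin II gene ends held 222 CPM in PDGFB-WT, 219 CPM in PDGFB-NLS and 214 CPM in Control. Without Ncapd3, the other condensin II genes held 132 CPM in PDGFB-WT, 165 CPM in PDGFB-NLS and 158 CPM in Control. The pooled log2 ratio of condensin II for PDGFB-WT against Control was 0.21 (0.08 to 0.31) with Ncapd3 and -0.10 (-0.28 to 0.02) without it. For PDGFB-NLS against PDGFB-WT it was -0.14 (-0.24 to -0.01) with Ncapd3 and 0.20 (0.06 to 0.36) without it. For PDGFB-NLS against Control it was 0.05 (-0.02 to 0.13) with Ncapd3 and 0.08 (-0.02 to 0.16) without it. The position of the PDGFB-WT condensin II sum against PDGFB-NLS and Control therefore rested on Ncapd3. The 2 SMC genes together held 126 CPM in PDGFB-WT, 148 CPM in PDGFB-NLS and 145 CPM in Control.

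Away from gene ends, fewer peaks were called on the condensin genes in the shallower PDGFB-WT library. Over all 8 genes, 14 peaks were called in PDGFB-WT, 23 in PDGFB-NLS and 23 in Control, with 9 in each library at gene ends. Those elsewhere numbered 5, 14 and 14 in the same libraries. All these peaks, gene ends included, formed 27 regions. All 3 libraries had a peak in 14 of them, and the calls of the rest were 5 in PDGFB-NLS and Control, 4 in PDGFB-NLS alone, 4 in Control alone and 0 in PDGFB-WT alone. The 14 regions, 51.9% of the 27, include 9 at gene ends. Of the 18 regions elsewhere, 5 (27.8%) were called in all 3 libraries. Of all 147229 regions of the series, 32.2% were called in all 3 libraries, 29.98% in PDGFB-NLS and Control, 21.3% in PDGFB-NLS alone, 9.82% in Control alone and 4.09% in PDGFB-WT alone. The condensin peaks were 0.0243% of the PDGFB-WT peak list, 0.0181% of that of PDGFB-NLS and 0.0214% of that of Control. A region not called in a library has no count there, and the parts of depth and accessibility in these peak numbers were not tested. Among the other peaks, one in the flank of Ncapd2 lies at the end of Gapdh and one in the flank of Ncapd3, called in PDGFB-NLS and Control, at the end of Jam3. Without both, other peaks held 235 counts in 4 peaks in PDGFB-WT, 1390 counts in 12 peaks in PDGFB-NLS and 1427 counts in 12 peaks in Control. They made up 5.85% of the condensin counts in PDGFB-WT, 8.11% in PDGFB-NLS and 8.21% in Control.

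Of the 4 regions inside condensin gene bodies that every library called, the one in Ncapd2 had a PDGFB-WT value apart from the others. It lay about 9 kb into the gene, at chr6:125181905-125182845 in PDGFB-WT, and had 11.7 CPM (8.34 to 15.97, 79 counts) in PDGFB-WT, 5.62 CPM (4.37 to 7.11, 138 counts) in PDGFB-NLS and 4.54 CPM (3.45 to 5.86, 117 counts) in Control. The PDGFB-WT interval lay above both others, and per kb of peak the values were 12.4, 5.09 and 5.13 CPM in the same libraries. These region levels had no all-gene median taken off and are given without a share over all regions. On this scale all gene ends together summed to less in PDGFB-WT (616073 CPM) than in PDGFB-NLS (672855 CPM) or Control (687200 CPM). The rest of the total can stand higher in PDGFB-WT for that reason, and its part here was not tested. The Smc4 region that began 1059 bases in had 14.1 CPM in PDGFB-WT, 18.5 CPM in PDGFB-NLS and 16.8 CPM in Control, and the Ncaph region about 20 kb in had 5.33, 3.66 and 3.14 CPM in the same libraries, in both cases with overlapping intervals. The Ncapg2 region about 29 kb in had 3.70 CPM (1.94 to 6.401, 25 counts) in PDGFB-WT, 6.11 CPM (4.80 to 7.65) in PDGFB-NLS and 6.05 CPM (4.78 to 7.55) in Control, lowest in PDGFB-WT but with overlapping intervals. In Ncapd3, PDGFB-NLS alone had a peak of 46 counts, chr9:27060186-27061075, that covers the gene's other RefSeq start at position 27060416. Smc2 had no peak other than its gene end in any library.

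**Figure D4:**
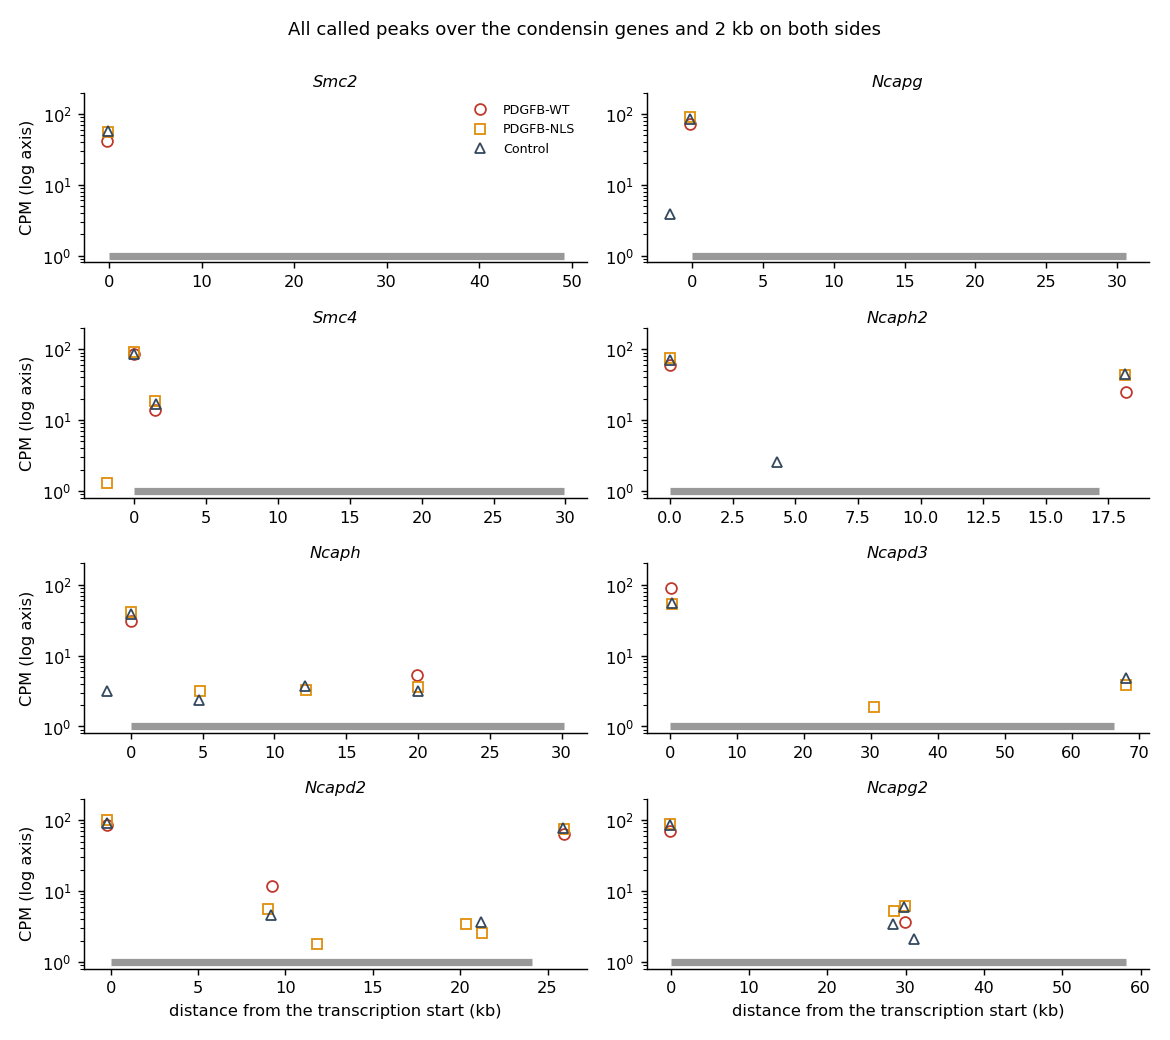
Peaks called on each condensin gene and in its 2 kb flanks, with 1 panel per gene, 1 marker shape per library and the gene body as a grey bar, by distance from the transcription start in kb (Smc4 from its lower coordinate) and level in CPM on a log axis. Peaks number 14 in PDGFB-WT, 23 in PDGFB-NLS and 23 in Control, and every panel has a gene-end peak in all 3 libraries.

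Cell classes were assigned by clustering each library alone and naming clusters from marker genes. A cluster open at microglia or macrophage markers was found in all 3 libraries, with a median log2 enrichment of its markers of 2.57 in PDGFB-WT, 3.20 in PDGFB-NLS and 3.75 in Control. It held 29.2% of barcodes in PDGFB-WT, 25.7% in PDGFB-NLS and 22.6% in Control. The largest PDGFB-WT cluster, with 47.7% of barcodes, scored highest for oligodendrocyte precursor (OPC) markers but was left unnamed as a mixture, since at the finer resolution of 1.0 only 41.0% of its barcodes stayed OPC-like. At that resolution OPC-like barcodes made up 19.7% in PDGFB-WT, 13.5% in PDGFB-NLS and 2.38%, or 53 barcodes, in Control. These shares differ between the libraries compared above, and their part in the ratios was not tested.

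In microglia-like barcodes the 8 condensin gene ends summed to 628 CPM (580 to 679) in PDGFB-WT, 600 CPM (576 to 625) in PDGFB-NLS and 565 CPM (543 to 587) in Control. Without Ncapd3, the other 7 summed to 522 CPM (479 to 569) in PDGFB-WT, 546 CPM (523 to 570) in PDGFB-NLS and 508 CPM (488 to 529) in Control, so the place of PDGFB-WT above PDGFB-NLS rested on Ncapd3. In OPC-like barcodes, at the finer resolution, the 8 summed to 532 CPM (483 to 584) in PDGFB-WT, 568 CPM (534 to 603) in PDGFB-NLS and 472 CPM (399 to 554) in Control. Per 10000 counts in all gene ends, the condensin genes held 9.05 counts in PDGFB-WT, 8.86 in PDGFB-NLS and 8.34 in Control among microglia-like barcodes, and 8.71, 8.95 and 7.67 in the same libraries among OPC-like barcodes. Without Ncapd3 these values were 7.53 in PDGFB-WT, 8.06 in PDGFB-NLS and 7.5013 in Control among microglia-like barcodes, and 7.20, 8.05 and 6.66 among OPC-like barcodes. PDGFB-NLS was then the highest in both classes, but the microglia-like CPM intervals without Ncapd3 overlapped between every pair of libraries. The OPC-like values without Ncapd3 are given without intervals, and those of Control rest on 53 barcodes. The other 7 summed to 439 CPM in PDGFB-WT, 511 CPM in PDGFB-NLS and 410 CPM in Control among OPC-like barcodes. Endothelial-like barcodes had 699 CPM in PDGFB-NLS and 654 CPM in Control. Per 10000 gene-end counts they had 8.91 in PDGFB-NLS and 8.01 in Control.

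Ncapd3 was highest in PDGFB-WT within both classes. In microglia-like barcodes it had 105.4 CPM (86.3 to 127.5) in PDGFB-WT, 54.1 CPM (47.0 to 61.9) in PDGFB-NLS and 56.5 CPM (49.9 to 63.8) in Control. In OPC-like barcodes it had 92.3 CPM (72.6 to 115.6) in PDGFB-WT, 56.9 CPM (46.6 to 68.9) in PDGFB-NLS and 62.2 CPM (37.7 to 96.5) in Control, where only 39 counts were available and the interval overlapped that of PDGFB-WT. Each library has 1 peak list for all its barcodes, so the difference in peak extent enters every class. Ncaph, the gene with the lowest level, had 20.9 CPM (12.9 to 31.9, 42 counts) in PDGFB-WT, 42.0 CPM (35.8 to 48.9) in PDGFB-NLS and 41.0 CPM (35.3 to 47.2) in Control among microglia-like barcodes, with the PDGFB-WT interval below both others. Among OPC-like barcodes, its level was 44.6 CPM in PDGFB-WT, 39.5 CPM in PDGFB-NLS and 25.5 CPM in Control, with overlapping intervals.

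**Figure D5:**
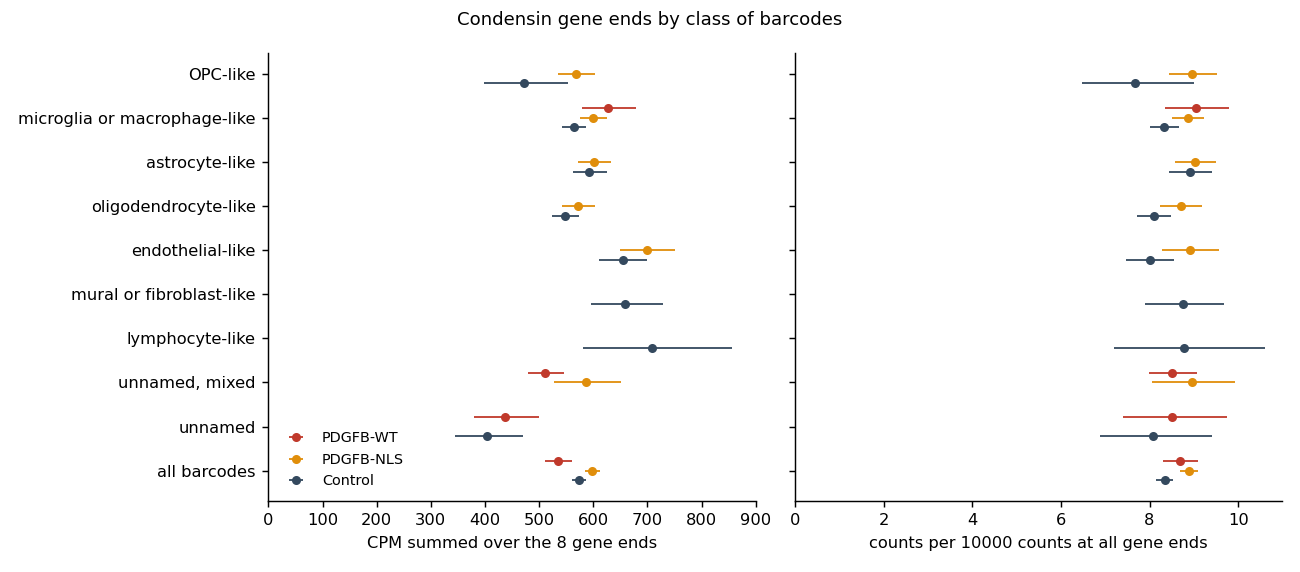
Summed gene-end level of the 8 condensin genes by cell class and library, in CPM (one panel) and per 10000 counts in all gene ends (the other), with 95% counting intervals, at the resolution of 0.6. Microglia-like barcodes stand at 628 CPM in PDGFB-WT, 600 in PDGFB-NLS and 565 in Control, and at 9.05, 8.86 and 8.34 per 10000 gene-end counts, sums that include Ncapd3.

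Over the 19 clusters of the 3 libraries, the summed condensin level went most closely with Strn (r = 0.96), Glrx5 (0.953), Ntmt1 (0.951), Nek1 (0.948) and Rcl1 (0.945) among 10711 genes, on log2 CPM centred within each library. The summed level of all gene ends had r = 0.964 with it, so the clusters share their overall openness at gene ends. The members themselves ran from -0.223 for Ncaph to 0.785 for Ncaph2 against the summed condensin level, which contains them. Over the 10711 genes the median r was 0.378 and the 95th percentile 0.836, above every member.

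Genes of related function were set beside the condensin genes. Of 31 regulators and partners of condensin on mitotic chromosomes, 29 could be compared between PDGFB-WT and Control. The shares of all genes called were 7.47% higher and 3.97% lower. The median log2 ratio of the 29 was -0.13, and 1 was called, the histone kinase gene Haspin at -0.87 (-1.29 to -0.47). Of 21 cohesin and SMC5/6 genes, 16 could be compared, with a median of 0.01 and 0 called. The 30 G2/M genes had a median of -0.20, with 1 called higher (the kinetochore gene Nuf2, 0.51) and 3 called lower, among them the checkpoint kinase gene Bub1 (-0.51) and the securin gene Pttg1 (-0.52). The 26 of 28 S phase genes compared had a median of -0.14, with 3 called lower, among them Fen1 (-0.93), a flap endonuclease, and Chaf1b (-0.74), a histone chaperone subunit. Per kb of peak length, Fen1 had -0.11 and Chaf1b -0.72. The 4 of 30 G2/M genes and 3 of 26 S phase genes called stood against 11.4% of all genes.

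Between PDGFB-NLS and Control, 0 genes of the 4 lists were called, against 8.11% of all genes, and their medians were 0.04 for condensin partners, -0.01 for cohesin and SMC5/6, -0.01 for G2/M and -0.01 for S phase genes. Between PDGFB-NLS and PDGFB-WT the medians were 0.07, -0.05, 0.25 and 0.10 in the same order, against 0.19 for the condensin genes. Haspin was the 1 condensin partner called there, higher in PDGFB-NLS at 0.97 (0.55 to 1.37), and the SUMO ligase gene Nsmce2 (0.51) the 1 gene of the cohesin and SMC5/6 list. Of the 30 G2/M genes, Bub1 (0.52) and Ckap2 (0.66) were called higher and Nuf2 (-0.51) lower in PDGFB-NLS. Of the 26 S phase genes compared, 3 were called higher, among them Chaf1b (0.88) and Fen1 (0.82). Per kb of peak length Fen1 had -0.02 and Chaf1b 0.83, and 1 of the 26 was called. All-gene shares in this comparison were 3.3% called higher and 4.48% lower.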

How the data were processed

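Single-cell ATAC-seq was deposited for 1 PDGFB-WT, 1 PDGFB-NLS and 1 Control library. The deposited matrices held raw counts of cut sites per peak and barcode, made with cellranger-atac 2.1.0 per the file headers. Cell Ranger 8 and mm10 are named in the submitters' processing notes. Each library had its own peak list. How peaks and cells were called is not given in the sources used here. Groups came from the sample titles.

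Barcodes under 200 counts and unplaced sequences were dropped. Fragments were taken as (v + 1) // 2 for a value v. Gene positions and promoters came from RefSeq GRCm38.p6. Peaks within 1000 bp of a gene end were summed, and a comparison needed 100 counts or more for the gene in both of its libraries. Intervals of log2 ratios were Clopper-Pearson on fragments, and those of levels were Poisson on counts divided by 2. A gene was called at 0.5 or more from the all-gene median log2 ratio. The ratio step was tested on simulated data.

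Each library was clustered with TF-IDF, components 2 to 30 of a singular value decomposition, 15 neighbours and Leiden resolution 0.6 (scipy 1.17.1, leidenalg 0.10.2). A cluster was named where its best of 12 marker lists had a median log2 enrichment of at least 1 and a lead of 0.5 or more, and if 50% or more of its barcodes kept the name at resolution 1.0, a rule set after the data were seen. Doublets were not called. The genes named were the 8 condensin genes, genes sharing their peaks, up to 2 called genes per list and direction, and the 5 genes most like the condensin sum over clusters. The members and lists were chosen with earlier results of these data known. Of 11 alternatives, most concerned scale, unit, window and filters, and an added one took off the median of genes within 5 Mb.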

Additional observations from a re-analysis of the deposited data

How the results depend on the processing

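Of 284 alternative values of single condensin genes, 280 lay within the 95% counting interval of the reported value and 4 outside it, 2 of which left the called side of the fold. Part of this was fixed in advance. A scale over all own peaks cancels once the all-gene median is taken off. A narrower window, regions called in all 3 libraries only and the count minimums left the counts of the members compared unchanged and moved only that median. The 280 therefore do not measure how stable the values are. No called value reversed, while 13 uncalled values changed sign, with sizes of up to 0.20. The largest was that of Ncapd3 for PDGFB-NLS against Control per kb of peak length. Per kb of peak length the count of condensin genes past the fold was 0 in place of 1 in both comparisons that involve PDGFB-WT. Ncapd3 then had 0.30 (PDGFB-WT against Control), -0.09 (PDGFB-NLS against PDGFB-WT) and 0.20 (PDGFB-NLS against Control). Without taking off the all-gene median, the median of the 8 was 0.32 between PDGFB-NLS and PDGFB-WT, while PDGFB-WT against Control gave -0.24. It was, between PDGFB-NLS and Control, 0.040 with a 2000 bp window and 0.052 with the median of genes within 5 Mb taken off, an alternative chosen after seeing the data, where Smc4 had -0.08. The cause was not tested. With 300 counts as the minimum, Smc2 and Ncaph drop out of comparisons with PDGFB-WT. Per kb of peak length, 10 in place of 4 of the 30 G2/M genes were called for PDGFB-WT against Control, against 13.8% of all genes. Of the 10, 1 was higher and 9 were lower, against 9.28% and 4.56% of all genes. Other settings gave fewer called G2/M genes. With fragments 2 of 27 were called, against 6.27% of all genes. With 300 counts as the minimum 1 of 16 was called, on the higher side, against 3.02% of all genes, and the G2/M median was -0.05. The remaining alternatives run on this list gave counts in between.

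Between the highest and lowest class, mixed clusters included and other unnamed ones not, the summed condensin CPM differed 1.23-fold in PDGFB-WT, 1.23-fold in PDGFB-NLS and 1.502-fold in Control. With each barcode thinned to 500 counts, the fold was 1.37 in PDGFB-NLS and 2.89 in Control, where the highest was lymphocyte-like with 31 barcodes and the lowest OPC-like with 53. Thinning left out 2043 barcodes in PDGFB-WT, 109 in PDGFB-NLS and 65 in Control. No paired analysis was possible because each group has 1 library.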
